A study of Mus musculus with 6 samples.

Results

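The genes described here are the tumour suppressor gene Trp53, 7 genes of its network (Mdm2, Cdkn1a, Ccng1, Phlda3, Sesn2, Trp53inp1 and Trp53i11) and the cell cycle inhibitor genes Cdkn2a and Cdkn2b. They are identified by symbol, with no threshold on their counts, although the list was drawn up with earlier results of these data known. All 10 were found among the 24421 genes of the count table. RNA-seq was performed on mouse endothelial cells in which the histone H3K79 methyltransferase Dot1l was deleted or overexpressed. BECs (blood endothelial cells) were isolated from the skin of E15.5 embryos, either Tie2-Cre(-); Dot1l 2f/2f (Cont, labelled wild type) or Tie2-Cre(+); Dot1l 2f/2f (cKO, labelled Dot1l KO), so the controls carried the floxed alleles too. Tie2-Cre is active in endothelial and blood cells, and the cells were depleted of those with CD45, F4/80 or Lyve1 on their surface. The authors' scheme of the isolation also lists them as positive for the BEC marker CD31, a step that their methods text does not describe. Cultured cells were BECs of the embryonic yolk sac line CRL-2581 and LECs (lymphatic endothelial cells) C57-6064L of embryonic dermis. They received a lentivirus with dCas9 fused to the activator VP64 and guide RNAs to the Dot1l promoter (OE-BECs, OE-LECs) or an empty lentivirus (Cont), and EGFP(+) cells were sorted. RNA of 2 to 3 embryos or cells of 2 to 3 flasks were pooled into 1 library per group. With 1 library in each of the 6 groups, no difference can be set against the spread between replicates, and each comparison describes 2 libraries.

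The p53 protein is a transcription factor that is kept low by its ubiquitin ligase Mdm2, and it is stabilized by DNA damage, oncogene activity and other stress. It activates genes that stop the cell cycle, repair DNA or start cell death, and Mdm2 is itself a target, which closes a feedback loop. Cdkn2a encodes p16INK4a, an inhibitor of the cyclin D kinases, and from another start p19ARF, an inhibitor of Mdm2. Both Cdkn2a and its neighbour Cdkn2b, which encodes p15INK4b, are low in embryonic tissue and rise when cells are kept in culture.

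The deposited counts summed to between 8863349 and 31032461 reads per library. Levels are given as CPM, the reads of a gene per 1000000 reads of its library. Intervals are exact 95% intervals on the reads and cover counting error only. A library with 3 reads or fewer of a gene is at its floor, which lies between 0.0967 and 0.338 CPM. Differences are given as log2 fold change (log2FC), the changed over the control library. Dot1l had 762 reads in Cont against 944 in the library labelled cKO (log2FC -0.07, interval -0.21 to 0.07). The count of the whole gene thus did not separate these libraries, and it does not test the deleted part. The authors reported that the deletion was checked by RT-qPCR of Dot1l, without a replicate. Dot1l was higher in OE-BECs (log2FC 1.48, interval 1.40 to 1.55) and in OE-LECs (1.20, interval 1.13 to 1.27). Of 6 lymphatic endothelial markers, Prox1, Pdpn and Ccl21a had 0 reads in both LEC libraries, while Lyve1 was at 1998 CPM in Cont LECs. All 10 blood endothelial markers were above the floor in every library. Both skin libraries also held all 10 macrophage markers above the floor, with summed levels of 3701 CPM in Cont and 5816 CPM in the library labelled cKO, against 34.4 to 94.0 CPM in the cultured libraries. Lyve1 was at 1027 and 1801 CPM in these skin libraries, although cells with Lyve1 on their surface had been depleted.

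On the CPM scale, 7 of the 10 genes were highest in OE-LECs and 8 were lowest in a skin library. Of 9707 genes with a mean of at least 10 CPM, 20.9% were highest in OE-LECs and 41.0% were lowest in a skin library. Cdkn1a, which encodes the CDK inhibitor p21 and is a classical p53 target, had 16.0 CPM in Cont BECs of the skin, 17.3 in the library labelled cKO, 122 in cultured Cont BECs and 133 in OE-BECs, with 411 (Cont) and 476 (OE) in the LECs. The skin libraries were far below the cultured ones and did not differ from each other beyond their interval, and each further step in this order was larger than its interval. Cultured Cont BECs had 7.62-fold the CPM of Cont BECs of the skin (interval 6.43 to 9.09), and Cont LECs had 25.6-fold (21.7 to 30.5). Tissue of origin, culture, viral transduction and the way the cells were isolated all differ between the skin and cultured libraries, so they cannot be told apart. In such pooled RNA, fewer cells that express a gene and less RNA of it per cell cannot be told apart either.

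**Figure D1:**
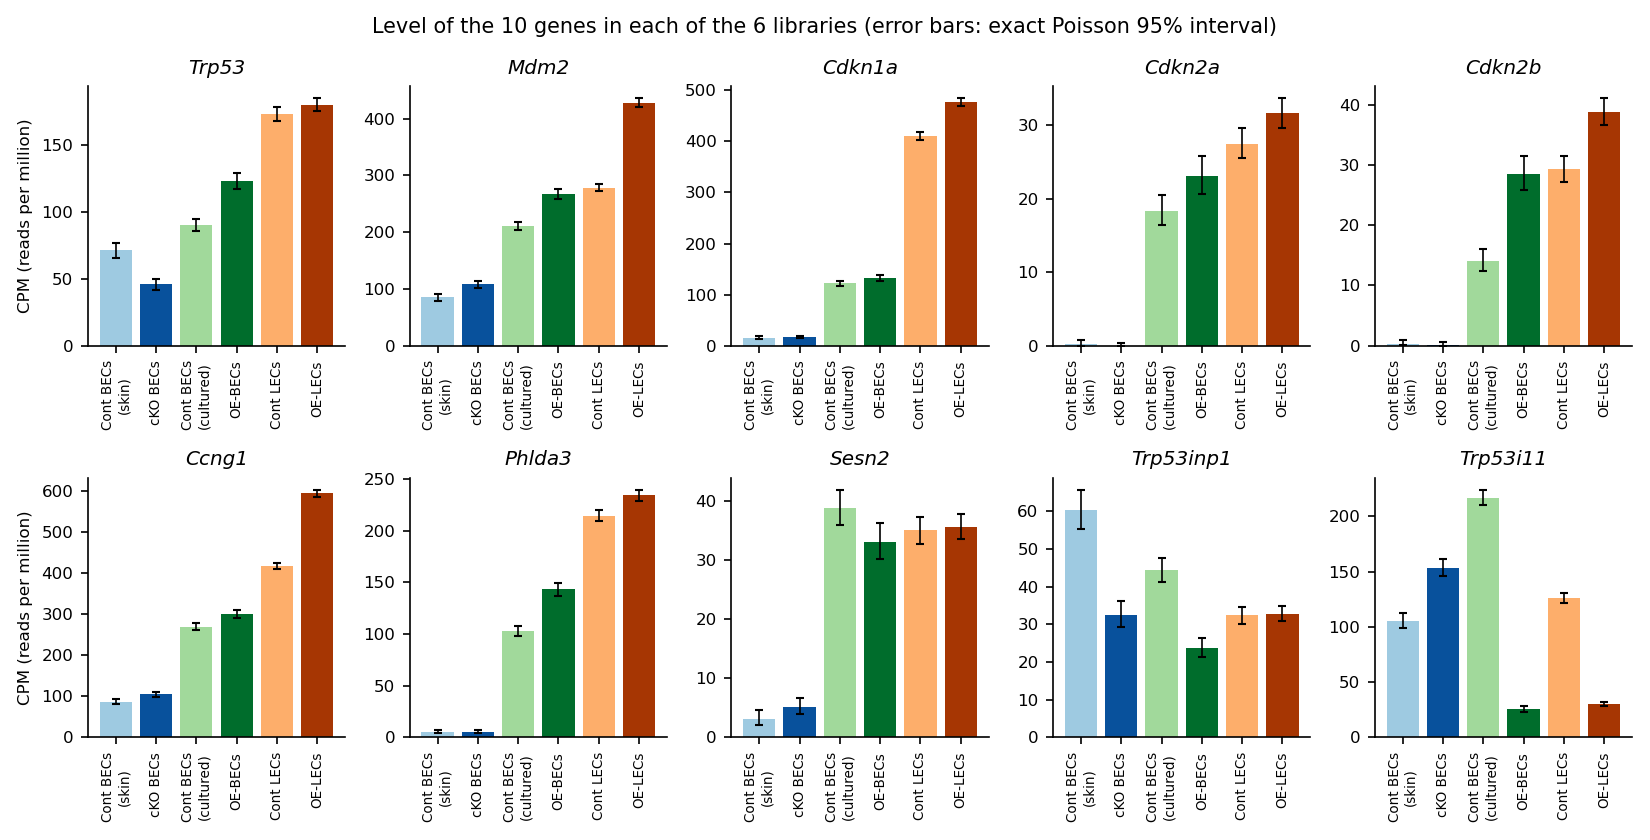
Level of each of the 10 genes (vertical axis, CPM, from 0) in the 6 libraries (1 bar each), with exact Poisson 95% intervals as error bars. Cdkn2a and Cdkn2b are at or under 3 reads in both skin libraries, and Trp53i11 is at 25.4 CPM in OE-BECs and 30.1 CPM in OE-LECs, below its level in every other library.

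Cdkn2a and Cdkn2b were at the floor in both skin libraries. Cdkn2a had 2 reads in Cont BECs of the skin and 0 in the library labelled cKO, against 324 in cultured Cont BECs and 322 in OE-BECs, and 717 (Cont) and 980 (OE) in the LECs. Cdkn2b had 3 and 2 reads in the skin libraries and 250, 398, 764 and 1203 in the cultured libraries, in the same order. Both genes were clearly counted in all 4 cultured libraries. In cultured Cont BECs, Cdkn2a had 81.2-fold the CPM of the 2 reads in the skin (interval 22.3 to 673) and Cdkn2b had 41.8-fold (14.1 to 204), intervals that are wide because of the few reads. The count of Cdkn2a does not separate p16INK4a from p19ARF. The locus lies on chromosome 4 of mm10, with Cdkn2a from 89274471 to 89294653 and Cdkn2b from 89306299 to 89311039, both on the minus strand.

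Phlda3, a p53 target that restrains the kinase Akt, had 5.19 CPM in Cont BECs of the skin, 5.32 in the library labelled cKO, 103 in cultured Cont BECs and 143 in OE-BECs, and 215 (Cont) and 234 (OE) in the LECs. Its level in cultured Cont BECs was 19.8-fold that in Cont BECs of the skin (interval 14.8 to 27.2). Sesn2, a stress-induced inhibitor of mTORC1 signaling, was likewise low in the skin, with 3.16 and 5.14 CPM, and stood between 33.1 and 38.8 CPM in the cultured libraries. None of the neighbours in the order of these 4 cultured levels of Sesn2 differed beyond their interval. Trp53 itself varied less, at 71.2 CPM in Cont BECs of the skin, 45.8 in the library labelled cKO, 89.9 in cultured Cont BECs, 123 in OE-BECs, and 173 (Cont) and 180 (OE) in the LECs. The pair of LEC libraries did not differ beyond its interval on this scale, and every other step in the order did.

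Mdm2 had 85.2 CPM in Cont BECs of the skin, 108 in the library labelled cKO, 211 in cultured Cont BECs, 267 in OE-BECs, and 278 (Cont) and 428 (OE) in the LECs. Ccng1, which encodes cyclin G1 and is a p53 target that acts back on Mdm2, had 86.2 and 105 CPM in the skin, 270 and 301 in the cultured BECs and 417 and 595 in the LECs, control first. Both genes were well counted in every library, with an ordered rise from skin to LECs in which the neighbours OE-BECs and Cont LECs did not differ for Mdm2. With size factors over all 6 libraries in place of CPM, these neighbours change places for Mdm2 and Cdkn2b. Trp53inp1, which encodes a stress-induced partner of p53, had another order, at 60.4 CPM in Cont BECs of the skin, 32.6 in the library labelled cKO, 44.4 in cultured Cont BECs, 23.7 in OE-BECs, and 32.4 (Cont) and 32.8 (OE) in the LECs. It was highest in Cont BECs of the skin and lowest in OE-BECs. Trp53i11 had 105 CPM in Cont BECs of the skin, 153 in the library labelled cKO, 217 in cultured Cont BECs, 25.4 in OE-BECs, and 126 (Cont) and 30.1 (OE) in the LECs, so that both overexpressing libraries lay below all others. Per length of the annotated exons, Trp53i11 was the highest of the 10 genes in Cont BECs of the skin (28.6 RPKM, reads per kb of exon and 1000000 reads), Ccng1 in cultured Cont BECs (76.8 RPKM) and Phlda3 in Cont LECs (138 RPKM).

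To set sequence beside these levels, the 250 bases before the start of each gene were searched for the decamer of the p53 response element, of which binding sites usually hold a pair. RefSeq promoters (GRCm38.p6, the assembly of mm10) were found for 9 of the 10 genes, 11 windows in all. The decamer, searched with its degenerate letters (it is its own reverse complement, so that both strands are covered), was found in 7.13% of 32851 such windows and in those of Trp53, Mdm2, Cdkn1a and Ccng1. A match is a stretch of letters and not a measured binding site. The windows of the classical targets and of Trp53i11, the gene that fell most below, are shown 5′ to 3′ on the strand of the gene, with the decamer in capitals.
Cdkn1a, upstream start (chr17:29090729-29090978, plus strand): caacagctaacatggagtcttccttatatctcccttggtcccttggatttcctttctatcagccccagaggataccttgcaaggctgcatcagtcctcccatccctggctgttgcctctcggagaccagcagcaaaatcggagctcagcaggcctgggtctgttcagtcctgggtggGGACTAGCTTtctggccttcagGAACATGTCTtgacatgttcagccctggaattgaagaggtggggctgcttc
Mdm2 (chr10:117710759-117711008, minus strand): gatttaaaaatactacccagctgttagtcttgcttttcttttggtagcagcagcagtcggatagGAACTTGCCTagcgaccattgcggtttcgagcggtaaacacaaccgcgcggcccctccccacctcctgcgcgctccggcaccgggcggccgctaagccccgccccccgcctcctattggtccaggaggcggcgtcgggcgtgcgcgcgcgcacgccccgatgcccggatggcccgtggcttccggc
Ccng1 (chr11:40755287-40755536, minus strand): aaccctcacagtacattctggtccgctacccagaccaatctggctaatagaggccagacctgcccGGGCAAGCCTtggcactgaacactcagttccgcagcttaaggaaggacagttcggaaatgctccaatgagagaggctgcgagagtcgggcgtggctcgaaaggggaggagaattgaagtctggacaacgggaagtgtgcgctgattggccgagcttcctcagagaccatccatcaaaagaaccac
Trp53i11 (chr2:93187298-93187547, plus strand): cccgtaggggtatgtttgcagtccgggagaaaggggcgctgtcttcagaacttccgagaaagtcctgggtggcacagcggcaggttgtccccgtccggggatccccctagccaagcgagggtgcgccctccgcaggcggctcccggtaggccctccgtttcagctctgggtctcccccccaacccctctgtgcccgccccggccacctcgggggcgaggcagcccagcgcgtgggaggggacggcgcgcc
The upstream window of Cdkn1a held 2 copies, beginning 73 and 51 bases before the start, and the window of its other start held 0. The windows of Mdm2 and Ccng1 held 1 copy each. The window of Trp53i11 held 0 copies, which says only that these letters are not in these 250 bases. Its share of G and C was 71.2%, as was that of Phlda3, against a median of 52.4% over all windows. Every window found for these genes lay above that median, from 52.8% for Trp53 to 78.4% for a start of Cdkn2a.

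For the comparisons, each pair of libraries was scaled by its median of ratios. A gene was called by a larger rule, more than 3-fold where the higher of its normalized counts reached 5 in the skin pair or 3 in the cultured pairs, or by a smaller one, at least 1.5-fold with an interval of the log2FC that excludes 0. In what follows, rose and fell are used of genes called by 1 of these rules.

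The first comparison asked how these genes differed between BECs labelled as with and without Dot1l. Of the 10 genes, 8 had at least 10 reads in the skin pair, all but Cdkn2a and Cdkn2b. None of them was called by the larger rule, against 5.94% of the 15554 genes tested. By the smaller rule 2 fell and 0 rose in the library labelled cKO, against 8.24% of all genes down and 12.0% up. By the interval alone, a rule added after the values were seen, 3 were higher, against 23.1% of all genes. That share is not matched for reads. Trp53 had 631 reads in Cont and fell to 508, or from 719 to 446 normalized counts (log2FC -0.69, interval -0.86 to -0.52). Trp53inp1 fell from 535 to 361 reads (log2FC -0.95, interval -1.14 to -0.75). Trp53 was thus 1.61-fold and Trp53inp1 1.93-fold lower there.

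The other p53 targets among the 10 genes gave values near or above 0. Mdm2 had 755 reads in Cont against 1202 in the other library (log2FC 0.29, interval 0.16 to 0.43). Ccng1 had 764 and 1161 reads (log2FC 0.23, interval 0.09 to 0.36), and Trp53i11 had 934 and 1701 (0.49, interval 0.37 to 0.60). All 3 were higher by less than the 1.5-fold of the smaller rule. Cdkn1a (142 and 192 reads, log2FC 0.06, interval -0.26 to 0.38) and Phlda3 (46 and 59 reads, -0.02, interval -0.60 to 0.57) showed no difference that could be detected at this depth. Sesn2 had 28 and 57 reads, and its interval of -0.03 to 1.36 around a log2FC of 0.65 just included 0. Scaling by total counts puts that interval above 0, which adds Sesn2 to the genes that rose.

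Other cell type markers moved in the same pair of libraries. Of 10 blood endothelial markers, 9 were lower in the library labelled cKO (median log2FC -0.70), and all 10 macrophage markers were higher (median 0.65). Of 8 keratinocyte markers with at least 10 reads, 6 were higher (median 0.59), 2 of them past 3-fold, and their summed level over 9 genes was 228 CPM in Cont against 394 CPM. Of 6 fibroblast markers, 5 were lower (median -0.48), with summed levels of 2510 CPM and 1849 CPM, control first. Of 19 immediate early and dissociation genes with at least 10 reads, 15 were lower there (median -0.59). The median over all genes tested was 0.00. The part of these shifts in the values of the genes described here was not tested.

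**Figure D2:**
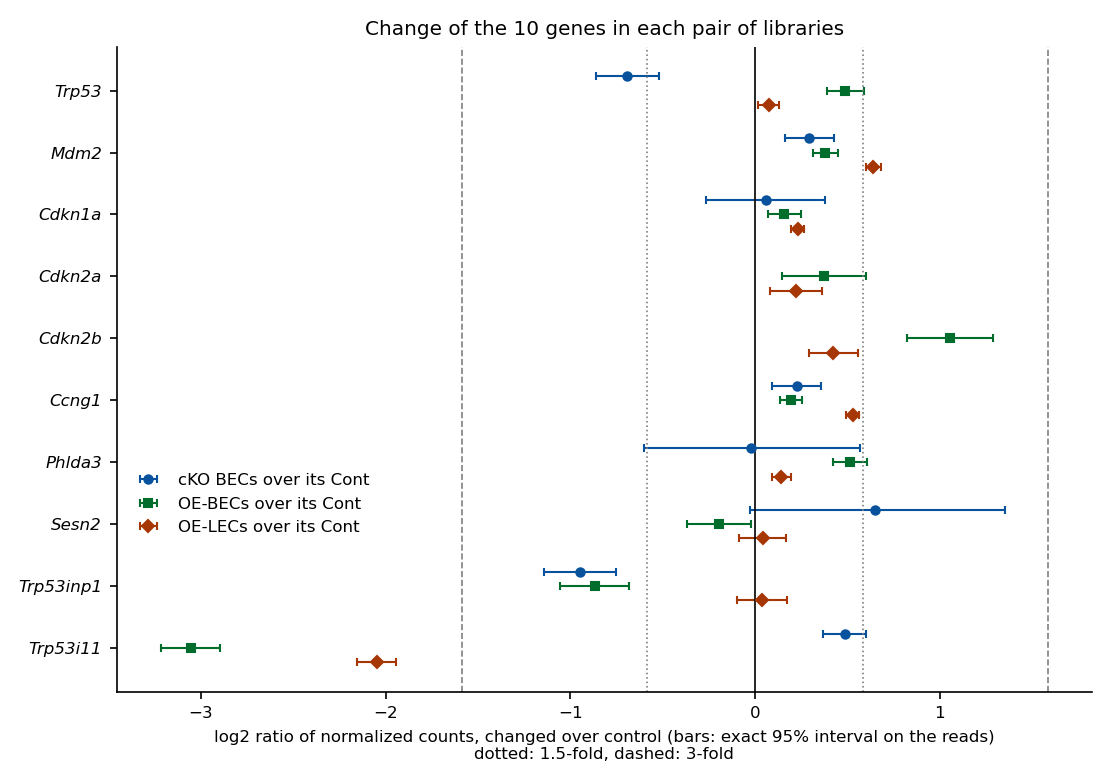
Log2FC of the 10 genes (rows), plotted on the horizontal axis as the log2 ratio of normalized counts, changed over control, in cKO BECs, OE-BECs and OE-LECs, with exact 95% intervals on the reads. Dotted and dashed lines mark 1.5-fold and 3-fold, and Cdkn2a and Cdkn2b are not drawn for the skin pair, where they had under 10 reads. Trp53i11 lies beyond the 3-fold line in both overexpressing lines, and no other point does.

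The second question was how the same genes stood when Dot1l was raised. Trp53i11, a gene named for its induction by p53 (chromosome 2 of mm10, 93187548 to 93201759), fell in both lines. Its reads were 3836 in cultured Cont BECs against 354 in OE-BECs, and 3287 in Cont LECs against 934 with the activator. This was 8.31-fold lower in OE-BECs (log2FC -3.05, interval -3.22 to -2.90) and 4.13-fold lower in OE-LECs (-2.05, interval -2.15 to -1.94). No other of the 10 genes was called by the larger rule in these lines, where 6.71% of 13396 genes were called in OE-BECs (3.46% down) and 2.36% of 13028 in OE-LECs (0.867% down). Among genes whose higher normalized count reached 100, 31 of 9867 in OE-BECs and 7 of 10503 in OE-LECs fell at least as far, Trp53i11 included. Of 12570 genes tested in both lines, 48 were called down in both (0.382%), Trp53i11 among them. Per length it went from 58.8 RPKM, rank 3 of the 10 genes, to 6.89 RPKM, rank 9, in BECs, and from 34.1 RPKM, rank 6, to 8.16 RPKM, rank 9, in LECs.

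By the smaller rule, 1 of the 10 genes rose and 2 fell in OE-BECs, against 10.1% up and 12.1% down among all genes. Cdkn2b rose from 250 to 398 reads (log2FC 1.05, interval 0.82 to 1.29), which is 2.08-fold. Trp53inp1 fell from 785 to 330 reads (log2FC -0.87, interval -1.06 to -0.68), as it did in the library labelled cKO. In OE-LECs, 1 gene rose and 1 fell, against 4.77% up and 4.09% down. The gene that rose was Mdm2, from 7266 to 13293 reads (log2FC 0.64, interval 0.60 to 0.68), which is 1.56-fold. Of the blood endothelial markers, 9 of 10 were lower in OE-BECs (median log2FC -0.56) and 8 of 10 in OE-LECs (median -0.23), and the part of this in the values of the 10 genes was not tested.

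The remaining values were small and mostly above 0. With the interval alone, 7 of 10 genes were higher in OE-BECs and 7 of 10 in OE-LECs, where 27.4% and 24.2% of all genes tested were. The 7 were the same in both lines: Trp53, Mdm2, Cdkn1a, Cdkn2a, Cdkn2b, Ccng1 and Phlda3. The intervals of these well counted genes are narrow, and the spread between replicate cultures, which they leave out, is unknown. A well counted gene passes the interval rule with a smaller difference, and the shares of all genes are not matched for reads. Cdkn1a was 1.12-fold higher in OE-BECs (2159 and 1850 reads, log2FC 0.16, interval 0.07 to 0.25) and 1.17-fold higher in OE-LECs (10723 and 14780 reads, 0.23, interval 0.20 to 0.27). Cdkn2a was 1.30-fold higher in OE-BECs (interval of the fold 1.11 to 1.52) and 1.16-fold higher in OE-LECs (1.06 to 1.28). The RNA differences of Cdkn1a and Cdkn2a were thus below 1.5-fold in both lines, although the interval for Cdkn2a in OE-BECs reached past it. Trp53 was 1.40-fold higher in OE-BECs (log2FC 0.49, interval 0.39 to 0.59) and 1.05-fold higher in OE-LECs (0.07, interval 0.02 to 0.13). Phlda3 was 1.43-fold higher in OE-BECs (interval of the fold 1.34 to 1.52) and 1.10-fold higher in OE-LECs (1.07 to 1.14), and Mdm2 was 1.30-fold higher in OE-BECs (1.25 to 1.36). Ccng1 leaned to the other line, with 1.15-fold in OE-BECs (1.10 to 1.19) and 1.44-fold in OE-LECs (1.41 to 1.48), and Cdkn2b was 1.34-fold higher in OE-LECs (1.22 to 1.47). Sesn2 had log2FC of -0.19 (interval -0.37 to -0.02) and 0.04 (interval -0.08 to 0.17).

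The log2FC were also compared between the lines. Each line has its own control, so the log2FC share no library. The 95% interval of their difference, from the reads of the 4 libraries by a normal approximation, excluded 0 for 8 of the 10 genes, 3 higher and 5 lower in OE-BECs, with no replicate to set it against. It did so for 50.9% of 12542 genes with a read in all 4 libraries, 22.7% higher and 28.2% lower, and for 63.6% of the 6698 genes whose interval was no wider than the widest of the 10. A difference beyond counting error was thus common among well counted genes. The log2FC was lower in OE-BECs than in OE-LECs for Trp53i11 (difference -1.01, interval -1.20 to -0.82) and Trp53inp1 (-0.91, interval -1.13 to -0.68). To a lesser degree it was lower for Ccng1 (-0.33), Mdm2 (-0.26) and Sesn2 (-0.24, interval -0.45 to -0.02). With size factors over the 4 cultured libraries, the interval of Sesn2 included 0. The log2FC was higher in OE-BECs for Cdkn2b (0.63, interval 0.37 to 0.89), Trp53 (0.42, interval 0.30 to 0.53) and Phlda3 (0.37, interval 0.27 to 0.48). For Cdkn1a the difference was -0.07 (interval -0.17 to 0.02), and for Cdkn2a it was 0.15 (interval -0.11 to 0.42).

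**Figure D3:**
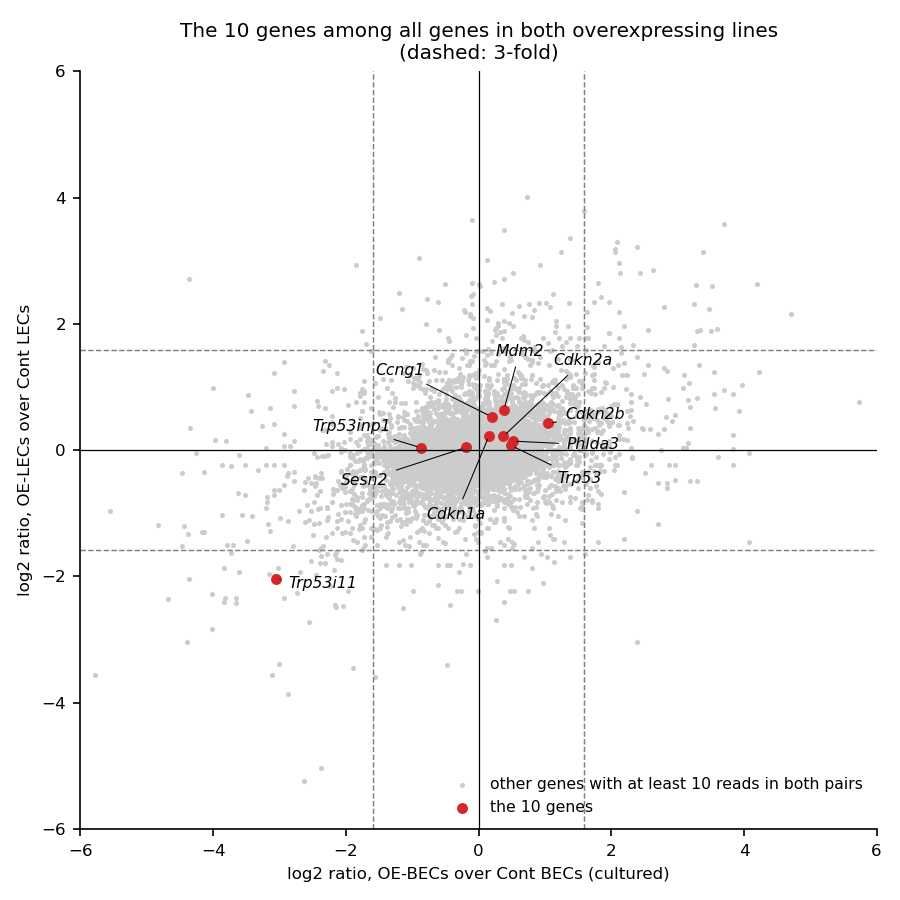
Log2FC (log2 ratio) in OE-BECs (horizontal axis) against that in OE-LECs (vertical axis) for genes with at least 10 reads in both pairs and a read in all 4 libraries (grey) and the 10 genes (red), with dashed lines at 3-fold. Trp53i11 is at -3.05 and -2.05, beyond the lines in both directions, and the other 9 genes lie within them.

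Other established p53 targets were followed in 3 lists of 42 genes in all. Of these, 42 had at least 10 reads in the skin pair, 36 in the BEC pair and 37 in the LEC pair. By the smaller rule, 8 rose and 4 fell in the library labelled cKO, 3 rose and 4 fell in OE-BECs, and 4 rose and 0 fell in OE-LECs. The shares of all genes by this rule were 12.0% up and 8.24% down in the skin pair, 10.1% and 12.1% in the BEC pair, and 4.77% and 4.09% in the LEC pair. With total counts, 2 in place of 4 fell in the library labelled cKO, and with total counts without Rn45s, 5 in place of 3 rose in OE-BECs. The medians of their log2FC, with 1 added to the normalized counts, were 0.19, 0.02 and 0.14, beside 0.00, -0.01 and 0.00 over all genes tested. By the larger rule, in either direction, 5.94% of all genes were called in the skin pair, 6.71% in the BEC pair and 2.36% in the LEC pair. That rule called 3 of these targets up in the skin pair and 0 up in the cultured pairs. These were Gdf15, a stress cytokine (7 and 64 reads, log2FC 2.81, interval 1.69 to 4.19), Rprm, an inhibitor of the G2 phase (6 and 42 reads, 2.43, interval 1.19 to 3.95) and Tnfrsf18 (10 and 49 reads, 1.91, interval 0.92 to 3.06). Few reads stood behind each of them in Cont.

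In OE-BECs 2 of these targets fell by the larger rule, which called 3.46% of all genes down there. Btg2, an antiproliferative gene that is also an immediate early gene, fell there from 3109 to 689 reads (log2FC -1.79, interval -1.91 to -1.67), and in the skin from 2719 reads in Cont to 1649 (-1.10, interval -1.19 to -1.01). Ndrg1, a stress and hypoxia response gene, went from 1210 down to 263 (log2FC -1.82, interval -2.02 to -1.63). Neither passed a rule in OE-LECs. Of the cell death list, Bax, the mitochondrial death effector, had log2FC of 0.11 (interval -0.00301 to 0.23) in OE-BECs and 0.07 (interval 0.01 to 0.12) in OE-LECs. Aen, a nuclease gene, rose in OE-BECs (log2FC 0.83, interval 0.72 to 0.94). In the library labelled cKO, 3 of the 14 genes of this list rose and 1 fell, against 12.0% and 8.24% of all genes. Pmaip1, which encodes the death protein Noxa, rose there (0.68, interval 0.42 to 0.94), and Ei24 fell from 524 to 439 reads (-0.63, interval -0.82 to -0.45). Of the list of 8 genes headed DNA repair and nucleotide supply, 1 was called in any pair. This was the noncoding RNA gene Trp53cor1, which is not itself a gene of repair or nucleotide supply. It had 173 reads in Cont and 61 with the activator in BECs (log2FC -1.12, interval -1.57 to -0.69).

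**Figure D4:**
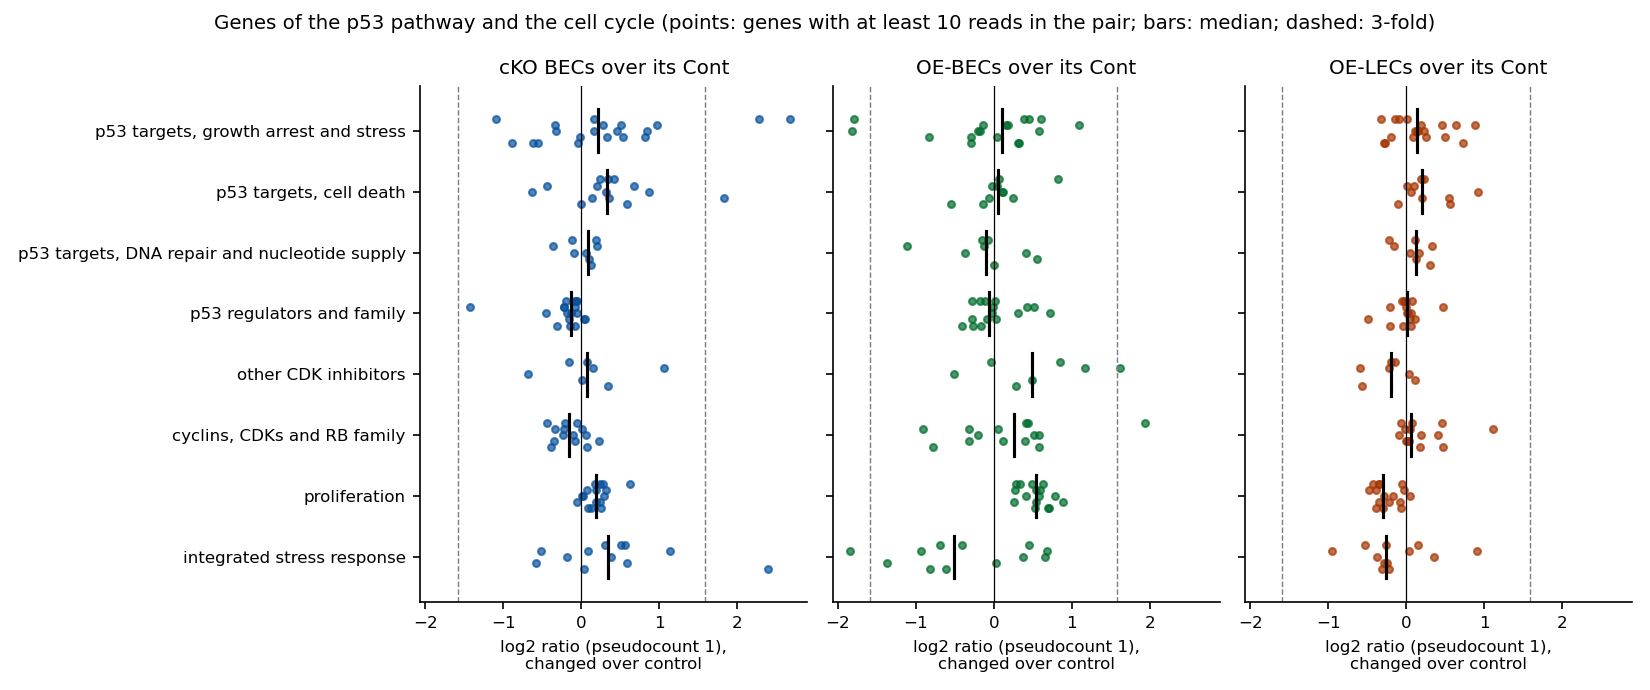
Log2FC on the horizontal axis, computed after adding 1 to the normalized counts, of the genes of 8 lists (rows) in cKO BECs, OE-BECs and OE-LECs (panels), 1 point per gene with at least 10 reads in the pair and a black bar at the median. The medians of the 3 lists of p53 targets lie between -0.10 and 0.33, and that of the proliferation list is at 0.54 in OE-BECs and -0.29 in OE-LECs.

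A list of 7 genes with CDK inhibitor names held Cdkn1b, Cdkn1c, Cdkn2c, Cdkn2d and Cdkn3. It also held Cdkn2aip and Cdkn2aipnl, which are not CDK inhibitors. Of the 7, 3 rose in OE-BECs, 1 rose and 1 fell in the library labelled cKO and 0 were called in OE-LECs. In the library labelled cKO, Cdkn3 rose (log2FC 1.07, interval 0.73 to 1.42) and Cdkn2aip fell (-0.69, interval -0.91 to -0.46). Among all genes 10.1% rose in OE-BECs, 12.0% rose and 8.24% fell in the skin pair, and 4.77% rose and 4.09% fell in OE-LECs. In OE-BECs the 3 were Cdkn1c (15 and 37 reads, log2FC 1.69, interval 0.79 to 2.66), Cdkn2d (154 and 214 reads, 0.86, interval 0.55 to 1.17) and Cdkn3 (81 and 141 reads, 1.18, interval 0.78 to 1.60), the last of which encodes a phosphatase of CDKs. Cdkn1b, which encodes p27, was not called in any pair, with log2FC between -0.16 and -0.04. Cdkn1c, an imprinted gene for p57, was abundant in the skin (130 CPM in Cont) and rare in culture (0.85 CPM in cultured Cont BECs and 1.68 in Cont LECs), the reverse of Cdkn2a and Cdkn2b.

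Further cell cycle genes were counted in the same libraries. Among 14 cyclin, CDK, RB family and E2F genes, Ccnd1, which encodes cyclin D1, rose in OE-BECs from 7472 to 21898 reads (log2FC 1.93, interval 1.90 to 1.97). It had a log2FC of 0.46 (interval 0.45 to 0.48) in OE-LECs. Ccnd2 fell in OE-BECs (log2FC -0.91, interval -1.05 to -0.77) and rose in OE-LECs (1.11, interval 0.97 to 1.25). Of 16 proliferation genes, 6 rose and 0 fell in OE-BECs, 1 rose in the library labelled cKO and 0 were called in OE-LECs. Of all genes, 10.1%, 12.0% and 4.77% rose and 12.1%, 8.24% and 4.09% fell, in the same order. The list was higher in 16 of 16 genes in OE-BECs (median 0.54) and in 15 of 16 in the library labelled cKO (median 0.19). In OE-LECs it was lower in 15 of 16 (median -0.29). By the interval alone, 16 were higher in OE-BECs and 11 in the library labelled cKO, against 27.4% and 23.1% of all genes. In OE-LECs 14 were lower by the interval alone, for which no share of all genes is given. These shares are not matched for reads.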

How the data were processed

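RNA-seq libraries of 6 groups, 1 library each, were analysed. The authors prepared them with ScriptSeq v2, trimmed adapters with skewer, aligned the reads to mm10 with STAR (also named in the submitters' processing notes), counted reads per gene with VERSE and deposited raw counts. The annotation they counted with is not given in the sources used here. Totals were 8863349 to 31032461 reads, so genes with few reads are known only within wide intervals. Without molecular identifiers, PCR copies count as separate reads. The table holds 24421 genes, 4473 of them at 0 in all libraries.

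Size factors (median of ratios) were computed for each pair of libraries with DESeq2 1.42.0 in R 4.3.3, and TMM factors with edgeR 4.0.16. Log2 ratios with Clopper-Pearson intervals were computed with Python 3.11.15 and scipy 1.17.1, and calls were made for genes reaching 10 reads over the pair. No test was made, because no group has a replicate. The steps were tested on simulated data. Positions and exon lengths came from GENCODE M21 and promoters from RefSeq. None of the 10 genes overlapped another gene of the count table. Of the genes in 16 lists, Cop1 was found under its older symbol Rfwd2. The members and lists were chosen with earlier results of these data known. Named were all 10 genes, and from each list the genes past the 3-fold rule with at least 20 normalized counts and up to 4 with the most reads, and for Cdkn1a and Mdm2 the 5 genes of most similar levels. Trp53cor1, Cdkn2d, Cdkn3, Ccnd2, Sesn3, Mtap, Trp63, Trp73 and Chek1, and values of a named gene in a further comparison, were chosen after their values were seen. Alternatives were other size factors, total counts with and without Rn45s, other minimums and folds, and a pseudocount of 1.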

Additional observations from a re-analysis of the deposited data

Results flagged for a closer look

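Sesn2 and Trp53inp1 had log2FC of opposite sign in the overexpressing lines. Sesn2 was at -0.19 in OE-BECs and 0.0429 in OE-LECs, and Trp53inp1 was at -0.87 in OE-BECs and 0.0379 in OE-LECs. The intervals in OE-LECs include 0 for both genes (-0.08 to 0.17 for Sesn2 and -0.10 to 0.17 for Trp53inp1). With 1 library per group, the difference between the lines was not tested against replicates.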

How the results depend on the processing

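No paired analysis was possible because each group has 1 library, and for the same reason no library could be left out. All 140 alternative values of the 28 log2FC of the 10 genes lay inside their intervals and moved by at most 0.0553, and no called ratio turned its direction. Phlda3 in the library labelled cKO, which was not called, moved from -0.02 to 0.04 with total counts. Of 96 counts and background shares under the alternatives, 85 stayed within 1.5 times. The exceptions were as follows. In the library labelled cKO, 1 of the 10 genes rose with total counts, with or without Rn45s (Sesn2), against 0, and 3 were higher by the interval alone. The other p53 targets that fell there were 2 with total counts, with or without Rn45s, against 4. In OE-BECs, 1 gene rose more than 2-fold (Cdkn2b), 7 were higher by the interval alone, and 5 of the other p53 targets rose with total counts without Rn45s, against 3. In OE-LECs, 7 were higher by the interval alone. Over all genes with a read, the share called by the larger rule was 11.7% in OE-BECs and 4.18% in OE-LECs, against 6.71% and 2.36%. Of 384 counts for single lists, 13 moved by more than 1.5 times. Rn45s took 5.91% of the reads in cultured Cont BECs and 10.9% in OE-BECs, which lowers their CPM by that share. In the skin, depth limits what can be said of Cdkn2a, Cdkn2b, Phlda3 and Sesn2.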

Other observations

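Genes of the integrated stress response, of which the kinase-driven factor Atf4 is the hub and which also reaches Sesn2, were mostly lower in OE-BECs. Of 12 genes, 6 fell and 2 rose by the smaller rule there, against 12.1% of all genes down and 10.1% up, with a median log2FC of -0.51. In OE-LECs, 8 of 12 were lower (median -0.26), with 1 that rose and 1 that fell, against 4.77% of all genes up and 4.09% down. Ddit4, an inhibitor of mTORC1 signaling, fell in OE-BECs from 2248 to 481 reads (log2FC -1.84, interval -1.99 to -1.70) and in OE-LECs from 2575 to 1564 (-0.95, interval -1.04 to -0.86). Sesn3, a paralog of Sesn2, fell from 304 to 90 reads in the BEC pair (log2FC -1.37, interval -1.73 to -1.03). Atf4 itself had a log2FC of 0.38 in OE-BECs and -0.37 in OE-LECs. In the library labelled cKO, 9 of 12 were instead higher (median 0.34). There 2 rose and 0 fell, against 12.0% of all genes up and 8.24% down. Slc7a11, a cystine transporter gene, rose there from 25 to 175 reads (log2FC 2.43, interval 1.82 to 3.10).

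Of 18 regulators and relatives of p53, 1 fell in the library labelled cKO, 1 rose in OE-BECs and 0 were called in OE-LECs by the smaller rule. Among all genes 8.24% fell in the skin pair and 10.1% rose in OE-BECs, while 4.77% rose and 4.09% fell in OE-LECs. In the library labelled cKO 16 of the 18 were lower, 9 of them by the interval alone. Their median was -0.14, beside 0.00 over all genes tested. No share of all genes stands beside these counts, so they are given as a description only. Well counted genes pass the interval rule with small differences, such as Usp7 (log2FC -0.13, interval -0.20 to -0.06). The gene that fell there was Trp73 (16 and 7 reads), and the gene that rose in OE-BECs was Chek1, which encodes a checkpoint kinase (121 and 153 reads). Mdm4, the partner of Mdm2, had log2FC of -0.06, -0.03 and 0.07 in the 3 comparisons. The p53 relative Trp63, a gene of epidermal cells, had 166 and 207 reads in the skin libraries and 0 to 5 in the cultured ones. Mtap, a neighbour of Cdkn2a, was counted in all libraries. It was at 51.1 CPM in Cont BECs of the skin and 52.8 CPM in cultured Cont BECs. Between these controls it thus did not share the difference of Cdkn2a. All its other levels were higher. The library labelled cKO had 64.9 CPM and OE-BECs had 84.9 CPM. The LEC pair stood at 139 CPM (Cont) and 173 CPM (OE). Across the cultured libraries, Mtap thus had the same order of CPM as Cdkn2a.

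The genes whose levels over the 6 libraries were most like those of Cdkn1a, by Euclidean distance of centred log2(CPM + 1) values, were Ppap2c (0.60), Tnfrsf23 (0.62), Klra18 (0.71), Trim43b (0.72) and Atf5 (0.76). For Mdm2 they were Frk (0.35), Prr13 (0.36), Mttp (0.37), 9030617O03Rik (0.37) and Ccdc137 (0.38). The distances describe these 6 libraries, which hold the skin and culture difference throughout.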
